A study of Mus musculus with 6 samples.

Results

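Zfp949, Morf4l1b and Morf4l1 are 3 of the 18482 genes listed in a count table from mouse ear skin, and all 3 had enough counts to be among the 14856 genes tested. Zfp949 and Morf4l1b were chosen by their higher counts in lecko than in control libraries, and Morf4l1 as the parent gene of Morf4l1b, so the difference between genotypes is described for them without a test. The skin came from the ears of mice aged 21 postnatal days. The lecko group, 3 libraries, lacked Vegfr2 (gene symbol Kdr) in lymphatic endothelium, and the other 3 libraries were from control littermates. Tamoxifen was given to both groups, and no source used here gives the Cre driver, the conditional allele or the strain. Polyadenylated RNA of the whole tissue was sequenced, so fewer cells of a type and less RNA per cell cannot be told apart.

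Morf4l1 encodes MRG15, a chromatin protein whose chromodomain binds histone H3 methylated at lysine 36 and whose MRG domain recruits partners. It is a subunit of the NuA4/TIP60 histone acetyltransferase complex and of a SIN3 histone deacetylase complex, and it also takes part in alternative splicing and in repair of DNA breaks. Its X-linked relative Morf4l2 (MRGX) carries the MRG domain without the chromodomain. Zfp949 encodes a zinc finger protein with a KRAB domain, a repressor module that in this protein family recruits TRIM28 and, through it, histone methyltransferases and heterochromatin proteins.

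Zfp949 lies on chromosome 9 from 88548020 to 88571086 and Morf4l1 on the same chromosome from 90091669 to 90114820, with a gap of 1.52 Mb between them (GRCm38.p6). With strain and alleles not given, whether the groups differ in the DNA sequence at or around these genes was not tested. Morf4l1b lies on chromosome 19 from 41525252 to 41526961, within the gene Lcor (41482682 to 41596161), and is not linked to the other two. The 1710 bases of Morf4l1b fall between an Lcor exon that ends at 41483600 and one that starts at 41528021 in the GENCODE annotation of the same build, and 0 Lcor exons overlap it. Morf4l1 transcripts are spliced from 13 exons (1882 bases) or 12 exons (1824 bases).

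The start of Morf4l1b is shown because it carries a stretch of its parent. The window around the gene start ends 50 bases into the gene and is from RefSeq (GRCm38.p6, chr19:41525002-41525301, plus strand). Capitals mark 38 bases, positions 13 to 50 of the gene. They are also found without a mismatch in the 13-exon Morf4l1 transcript from its base 65 and in the 12-exon one from its base 124. The match reaches the end of the window, and bases of Morf4l1b beyond it were not compared.
Morf4l1b: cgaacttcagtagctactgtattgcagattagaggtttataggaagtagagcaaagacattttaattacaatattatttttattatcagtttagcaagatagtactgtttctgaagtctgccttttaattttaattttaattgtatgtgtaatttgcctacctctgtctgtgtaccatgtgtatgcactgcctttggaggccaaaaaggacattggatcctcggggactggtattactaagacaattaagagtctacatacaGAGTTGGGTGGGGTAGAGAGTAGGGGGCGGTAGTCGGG
The windows of the other 2 genes are given for comparison, with CG dinucleotides in capitals, Zfp949 from chr9:88547770-88548069 on the plus strand and Morf4l1 from chr9:90114771-90115070 on the minus strand.
Zfp949: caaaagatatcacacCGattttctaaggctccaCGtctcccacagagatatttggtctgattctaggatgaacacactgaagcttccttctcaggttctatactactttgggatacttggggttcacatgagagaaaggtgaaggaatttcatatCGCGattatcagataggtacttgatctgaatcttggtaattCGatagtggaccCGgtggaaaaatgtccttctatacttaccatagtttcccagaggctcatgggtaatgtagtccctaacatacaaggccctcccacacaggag
Morf4l1: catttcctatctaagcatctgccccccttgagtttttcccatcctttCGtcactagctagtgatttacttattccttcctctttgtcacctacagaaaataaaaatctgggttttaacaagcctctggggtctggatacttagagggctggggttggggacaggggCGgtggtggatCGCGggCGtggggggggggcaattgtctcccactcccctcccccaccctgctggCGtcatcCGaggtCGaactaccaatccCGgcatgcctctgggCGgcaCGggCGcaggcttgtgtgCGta
Morf4l1 had 13 CG dinucleotides and 56.3% G and C in this window, against 6 and 43.3% for Zfp949 and 4 and 38.7% for Morf4l1b. The median over 32544 promoter windows of the RefSeq table was 7 CG dinucleotides and 53.0% G and C. The letters GGGCGG, searched on both strands, occurred in 2 places for Morf4l1 and in 1 for Morf4l1b, there inside the stretch shared with Morf4l1, and in 0 for Zfp949, while 35.9% of all windows held them. The letters CCAAT occurred once for Morf4l1, just inside the gene, and once for Morf4l1b, at -39 to -35 from the gene start on the opposite strand. They occurred in 0 places for Zfp949 (37.4% of all windows). TATAAA occurred once for Morf4l1b, at -215 to -210 on the opposite strand, and in 0 places for the other 2 genes (13.6% of all windows). Whether any of these letters act in a promoter was not tested.

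A Zfp949 transcript of 3472 bases and 6 exons (GENCODE M21) has a coding sequence that is 603 codons long and held 11 C2H2 zinc fingers, all in 1 exon, and 1 match to the start of a KRAB domain. Such repeats are alike among many zinc finger genes. Fingers 7 and 8 are shown because no other pair of adjacent fingers compared matched at more bases. Finger 7 lies at chr9:88569774-88569857 and finger 8 at chr9:88569858-88569941 (GRCm38, plus strand), and capitals mark the codons of the zinc-binding cysteines and histidines.
Finger 7: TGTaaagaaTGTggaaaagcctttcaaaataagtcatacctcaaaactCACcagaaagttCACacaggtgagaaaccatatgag
Finger 8: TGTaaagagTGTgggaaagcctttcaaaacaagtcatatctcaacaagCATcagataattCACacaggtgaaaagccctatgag
These fingers matched at 71 of 84 bases (84.5%). Of the same transcript, 0 of the 3423 distinct 50-base words occurred in a GENCODE transcript of any other gene. Of the 1833 words of the 13-exon Morf4l1 transcript, 859 (46.9%) also occurred in transcripts of 9 other genes, led by Morf4l1-ps1 with 808. None of these 9 names is the symbol of a row in the count table used here. No transcript named Morf4l1b was found in the GENCODE set used here, so its own words were not counted. Whether any of the 9 genes is Morf4l1b under another name was not tested.

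Kdr, the deleted gene, had 9.76, 11.2 and 10.2 CPM (counts scaled to library size with TMM factors) in lecko libraries 1 to 3, against 32.6, 31.3 and 38.5 CPM in control libraries 1 to 3. Total estimated counts were 17242921 to 17825135 per library. Counts of 4 Y-linked genes were 4 to 21 in the lecko libraries and 18 in control 1, against 4272 and 4564 in controls 2 and 3, so genotype and sex differ together and control 1 alone matches the lecko libraries. Summed CPM of 6 leukocyte markers was 246.2 to 322.3 in lecko libraries and 171.1 to 237.9 in controls. Marker sums of some other cells were lower in lecko libraries. They were 312.4 to 337.0 against 364.6 to 402.2 for 7 lymphatic and 256.2 to 272.0 against 297.8 to 329.5 for 6 blood endothelial genes. For 5 skeletal muscle genes they were 2581 to 3440 against 3545 to 4027. Within the lymphatic list, log2 fold changes ran from -0.58 to 0.20, with 2 of 7 genes above 0. Ccl21a of this list averaged 95.98 CPM in lecko skin and 143.7 CPM in control skin. In the blood endothelial and muscle lists 0 genes lay above 0. Sums of 5 keratinocyte markers (23020 to 24180 CPM in lecko libraries, 22300 to 26590 in controls) and of 5 fibroblast markers (18120 to 19850 and 15490 to 23890) overlapped, and 0 markers of the 6 lists were at 0 in all libraries. The part of these cell types in the results below was not tested.

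Zfp949 was higher in every lecko library than in any control. It had 1489, 1585 and 1756 reads in lecko libraries 1 to 3, against 431, 449 and 377 reads in controls 1 to 3. All 6 values were whole numbers, without the fractions that shared reads leave. The lowest lecko library stood well above the highest control, and control 1, which matches the lecko mice in Y-linked counts, lay between the other controls. In CPM the levels were 84.02, 89.61 and 99.65 in lecko libraries and 24.85, 25.82 and 21.52 in controls, or 91.1 ± 7.92 against 24.1 ± 2.25 (SD, n = 3 each). The log2 fold change was 1.92 (SE 0.09), a ratio of mean CPM of 3.79.

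Morf4l1b, the copy on chromosome 19, was also higher in every lecko library. It had 1131.65, 1030.61 and 1113.49 estimated counts in lecko libraries 1 to 3, against 378.24, 440.02 and 386.40 in controls 1 to 3. In CPM this was 63.88, 58.29 and 63.16 in lecko libraries and 21.80, 25.30 and 22.04 in controls, or 61.8 ± 3.04 against 23.0 ± 1.96 (SD, n = 3 each). The groups did not overlap, and the libraries of each group lay close together. The log2 fold change was 1.42 (SE 0.08), a ratio of mean CPM of 2.68.

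Morf4l1 itself overlapped between the groups. It had 5937.35, 5431.39 and 5415.51 estimated counts in lecko libraries 1 to 3, against 5846.76, 6206.98 and 5588.60 in controls 1 to 3. The highest lecko library lay between the controls, and the other two lay below all of them. CPM averaged 316.5 ± 16.1 in lecko libraries and 337.7 ± 18.9 in controls (SD, n = 3 each), with a log2 fold change of -0.09 (SE 0.07).

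**Figure D1:**
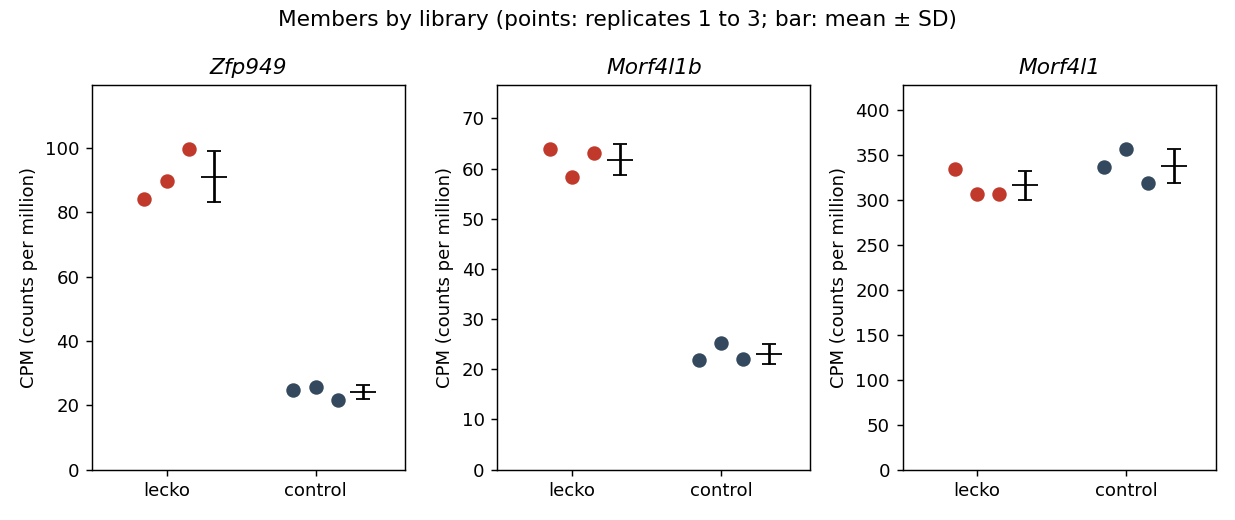
Levels of the 3 genes in CPM on the y axis, each panel from 0, with 1 point per library for lecko (left) and control (right) and a bar for the mean ± SD of 3 libraries. Zfp949 and Morf4l1b separate without overlap (91.1 against 24.1 CPM and 61.8 against 23.0 CPM), while the Morf4l1 libraries overlap (316.5 against 337.7 CPM).

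Zfp949 and Morf4l1b are 2 of the 3 genes with an adjusted p under 0.05 (edgeR quasi-likelihood fit, Benjamini-Hochberg), which make up 0.0202% of the genes tested. Both are higher in lecko skin, as 0.0135% of tested genes were, and the third, Kdr, is the 0.00673% that were lower. This call is what chose them. DESeq2 called 24 genes higher and 8 lower, and edgeR called 36 higher without control 2, 4 higher and 2 lower without lecko 2 and 5 lower without control 1. The gene just outside that threshold was Fgr, a kinase gene of myeloid cells, with 7.41 ± 0.59 CPM in lecko skin and 3.71 ± 0.05 CPM in control skin (SD, n = 3 each) and a log2 fold change of 1.00 (adjusted p = 0.127 by the same test). The groups did not overlap for 2 of the 3 genes described here, both higher, as for 7.37% of all genes tested.

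The estimated counts of Morf4l1b and Morf4l1 were tied to each other. RSEM, named in the submitters' processing notes, divides reads that match several transcripts among them, which leaves fractions. The fractional parts of Morf4l1b were 0.65, 0.61 and 0.49 in lecko libraries and 0.24, 0.02 and 0.40 in controls. Those of Morf4l1 were 0.35, 0.39 and 0.51 in lecko libraries and 0.76, 0.98 and 0.60 in controls. In all 6 libraries the fractions of the pair added up to a whole number (within 0.001), and of the 18482 rows Morf4l1b was the 1 row that complemented Morf4l1 in this way. Fractional values were not rare in the table: 2525 genes (13.7%) had a fraction in at least 1 library, 1284 had one in all 6, and 752 of these had exactly 1 such complement. Morf4l2 had whole counts in every library, so the fractions of the pair are not shared with it.

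Summed over the pair, the counts were 7069, 6462 and 6529 in lecko libraries 1 to 3, against 6225, 6647 and 5975 in controls 1 to 3. The sums overlapped between the groups, since control 2 exceeded lecko libraries 2 and 3. In CPM the pair averaged 378.2 ± 18.1 in lecko skin and 360.7 ± 20.6 in control skin (SD, n = 3 each), a log2 difference of 0.07. In deposited counts, the lecko mean minus the control mean was 690.4 for Morf4l1b and -286.0 for Morf4l1, and the Morf4l1 libraries of both groups overlapped. How many reads of each gene matched it alone is not recorded in the values used here, so whether reads were divided in the same way in both groups was not tested.

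Morf4l1b made up 16.01%, 15.95% and 17.05% of the pair's counts in lecko libraries 1 to 3, against 6.07%, 6.62% and 6.46% in controls 1 to 3. The exact (Clopper-Pearson) 95% intervals, which cover counting error only, lay between 15.1 and 18.0% over the lecko libraries and between 5.49 and 7.24% over the controls. The mean share was 16.3 ± 0.62% in lecko skin and 6.38 ± 0.28% in control skin (SD, n = 3 each), a difference of 9.95 percentage points. These are shares of counts, not of transcripts per length.

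**Figure D2:**
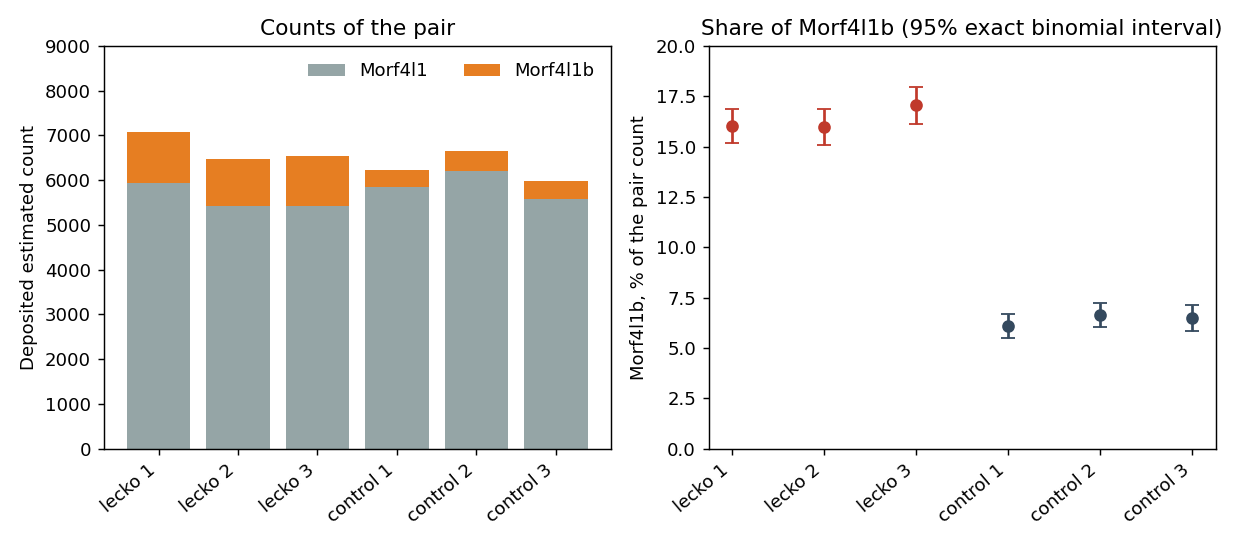
Left, deposited estimated counts of Morf4l1 (grey) and Morf4l1b (orange) stacked for each library, lecko libraries first. Right, the share of Morf4l1b in the pair's counts in percent, with 95% exact binomial intervals; the lecko libraries sit at 15.95 to 17.05% and the controls at 6.07 to 6.62%, while the stacked totals overlap.

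Morf4l2, the X-linked relative, was not used to choose the genes. It had 4484, 4161 and 4328 reads in lecko libraries 1 to 3, against 4372, 4570 and 4011 in controls 1 to 3. The groups overlapped, and the log2 fold change was -0.02 (SE 0.07, adjusted p = 0.946 by edgeR). The sum over Morf4l1, Morf4l1b and Morf4l2 was 11553, 10623 and 10857 in lecko libraries and 10597, 11217 and 9986 in controls. In CPM it averaged 622.8 ± 26.3 in lecko skin and 608.7 ± 37.5 in control skin (SD, n = 3 each), a log2 difference of 0.03. The family total therefore overlapped between the groups while Morf4l1b did not.

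Genes around the members were compared next, since position was not part of the choice. Within 2 Mb of any member, 61 neighbours were tested, and 0 had an adjusted p under 0.05 by edgeR, against 0.0202% of all genes. At an unadjusted p under 0.05 there were 4 higher and 2 lower, 9.84% of those tested, against 8.56% of all genes (4.89% higher and 3.68% lower). By DESeq2 3 neighbours (4.92%) had an unadjusted p under 0.05, against 6.52% of all genes. Around Zfp949 the median log2 difference of 21 tested neighbours was 0.06. Around Morf4l1b it was -0.03 over 39 and around Morf4l1 0.04 over 13, beside 0.01 over all tested genes. By locus, the neighbours with an unadjusted p under 0.05 by edgeR were 3 around Zfp949 (14.3%), 3 around Morf4l1 (23.1%) and 3 around Morf4l1b (7.69%). The windows of Zfp949 and Morf4l1 overlap, and their 3 genes are the same (Nt5e, Bcl2a1b and Tmed3).

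The nearest tested genes beside Zfp949 were Syncrip, which encodes an RNA-binding protein, and Mthfsl. Syncrip had 234.1, 238.1 and 231.7 CPM in lecko libraries, against 231.9, 230.0 and 229.7 CPM in controls (log2 0.03, SE 0.05). Mthfsl had a log2 fold change of -0.09 (SE 0.08). Both were within 0.1 of no change on the log2 scale, beside 1.92 for Zfp949 between them, which was chosen for its difference. Further off, Nt5e, the gene of the ectonucleotidase CD73, had 88.7, 78.3 and 97.8 CPM in lecko libraries and 73.3, 71.1 and 65.4 CPM in controls, without overlap (log2 0.34, unadjusted p = 0.0035 and adjusted p = 0.420 by edgeR). Bcl2a1b, a survival gene of leukocytes with near-identical copies nearby, had 1.85 ± 0.86 CPM in lecko skin and 0.71 ± 0.08 CPM in control skin (SD, n = 3 each; log2 1.37, SE 0.37, adjusted p = 0.467 by edgeR). How its reads were divided from those of the copies was not tested, so its value is uncertain. Tmed3, a gene of vesicle trafficking between Zfp949 and Morf4l1, had a log2 fold change of -0.14 (SE 0.05).

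The genes nearest to Morf4l1 were Ctsh, the gene of cathepsin H, with a log2 fold change of -0.06 (SE 0.11), and Adamts7, a metalloprotease gene, with 0.17 (SE 0.12). Near them, Tbc1d2b was at 0.13, Mthfs at -0.16 and, at the far edge of the Zfp949 window, Rwdd2a at 0.45 with a mean of about 1 CPM. None of these had an adjusted p under 0.6 by edgeR.

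Lcor, a nuclear receptor corepressor gene, holds Morf4l1b between its exons on the same strand. Lcor had 336, 322 and 316 reads in lecko libraries 1 to 3, against 329, 358 and 354 in controls 1 to 3, all whole numbers. These counts overlapped. In CPM Lcor had 18.96, 18.2 and 17.93 in lecko libraries and 18.97, 20.58 and 20.21 in controls, without overlap, as for 14.6% of all genes tested. Its log2 fold change was -0.12 (SE 0.08, adjusted p = 0.709 by edgeR), beside 1.42 for Morf4l1b. The next tested genes on either side were Pik3ap1, an adaptor of PI3 kinase signalling in B cells and other leukocytes, and Slit1, an axon guidance ligand. Pik3ap1 had 15.3 ± 1.97 CPM in lecko skin and 9.38 ± 2.57 CPM in control skin (SD, n = 3 each, log2 0.71, SE 0.19, adjusted p = 0.470 by edgeR). The leukocyte marker sum given above was also higher in lecko libraries, and the part of leukocytes in the Pik3ap1 difference was not tested. Slit1 had 1.301 CPM in both groups. Of the other neighbours with the smallest p, Tll2 had a log2 fold change of 0.70, Hpse2 0.43, Exosc1 0.20 and Got1 -0.16, all with an adjusted p above 0.5 by edgeR.

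**Figure D3:**
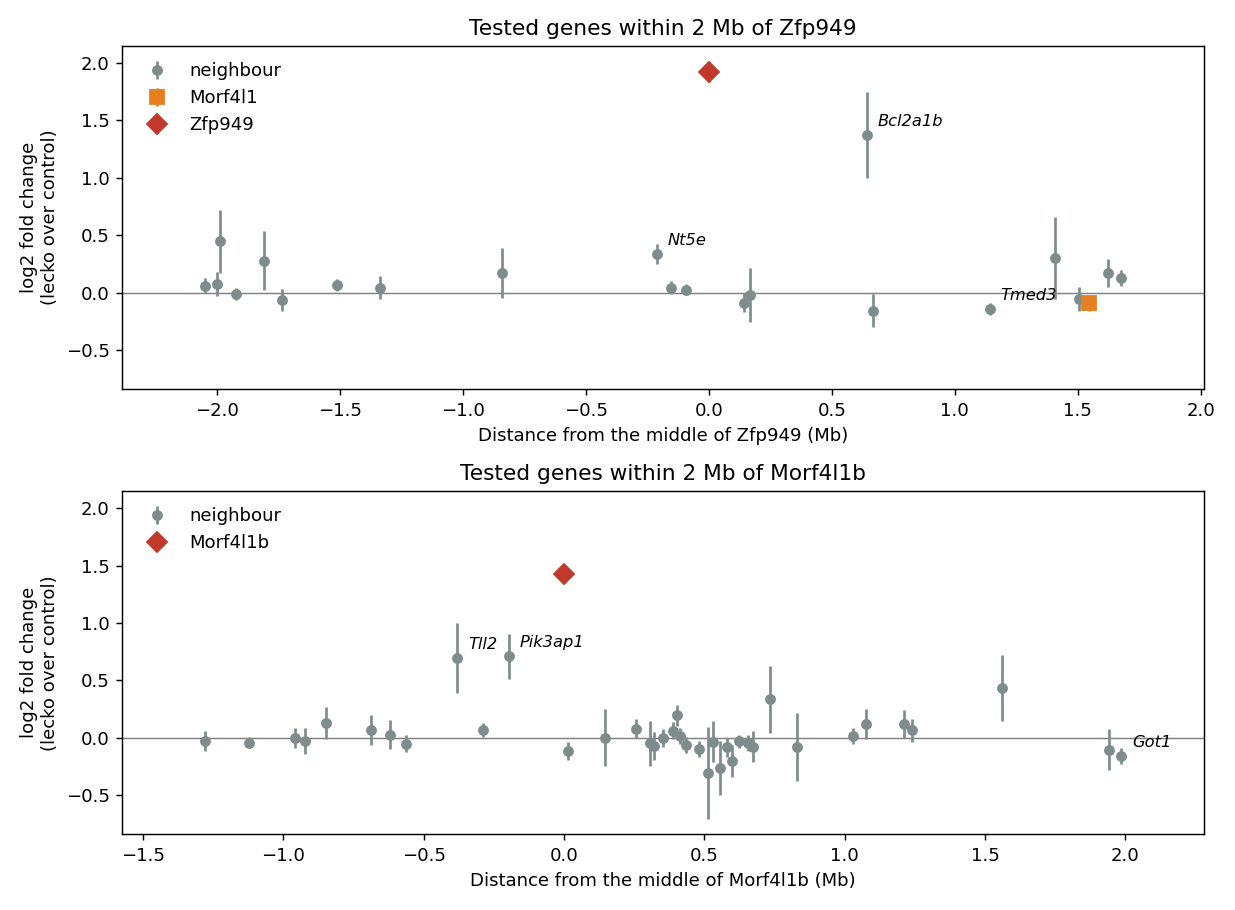
Log2 fold change (lecko over control, bars SE) of tested genes within 2 Mb of Zfp949 (top) and of Morf4l1b (bottom), against the distance from the middle of that gene in Mb. Named neighbours are those with an unadjusted p under 0.05. Zfp949 (1.92) and Morf4l1b (1.42) were chosen for their difference, so their place above the neighbours (medians 0.06 and -0.03) follows from the choice.

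No partner gene of MRG15 passed the adjusted threshold, which only 0.0202% of all genes tested passed. Of 32 listed genes, all tested, 0 had an adjusted p under 0.05 by edgeR, and 0 higher and 1 lower had an unadjusted p under 0.05 (3.12%, against 8.56% of all genes). The median log2 difference was 0.02, beside 0.01 over all tested genes. The gene below the unadjusted threshold was Mrgbp, a NuA4 subunit that binds MRG15 directly, with 20.82, 18.77 and 18.90 CPM in lecko libraries and 22.03, 24.21 and 22.95 CPM in controls (log2 -0.24, SE 0.08, adjusted p = 0.514 by edgeR). Brca2, which acts in DNA repair with the MRG15 partner PALB2, was at 0.26, the SIN3 scaffold Sin3b at -0.10 and the NuA4 bromodomain subunit Brd8 at -0.08. The 7 H3K36 methyltransferase genes, among them writers of the mark that MRG15 reads, had a median of 0.04, with 0 at an unadjusted p under 0.05. Nsd1 and Setd2 were at 0.09 each, Ash1l, which also counts as an MRG15 partner, at 0.08 and Smyd2 at -0.07.

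The machinery that KRAB zinc finger proteins use was likewise without a call, where only 0.0202% of all genes tested had one. Of 16 co-repressor genes, 0 had an adjusted p under 0.05 by edgeR, and 1 higher and 1 lower had an unadjusted p under 0.05 (12.5%, against 8.56% of all genes), with a median log2 difference of 0.05. Uhrf1, which targets DNA methylation to newly made DNA, was at 0.20 (33.1 ± 0.99 CPM in lecko skin, 28.9 ± 2.67 in control skin; SD, n = 3 each). Mbd3, a subunit of the NuRD complex, was at -0.14, the NuRD ATPase gene Chd3 at 0.18 and the DNA methyltransferase gene Dnmt1 at 0.10.

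Other genes named Zfp and a number were compared as the family around Zfp949. Of 357 such genes, 339 were tested, and 0 had an adjusted p under 0.05 by edgeR, against 0.0202% of all genes. At an unadjusted p under 0.05 there were 15 higher and 2 lower (5.01%, against 8.56% of all genes). The median log2 difference of the tested genes was 0.04, and their range was -1.07 to 1.18. Zfp949, at 1.92, was chosen for its difference. Zfp365 was at 0.39 with 10.7 ± 0.78 CPM in lecko skin and 8.19 ± 0.32 CPM in control skin (SD, n = 3 each). Zfp967 was at -1.07, Zfp984 at 0.42 and the X-linked Zfp275 at 0.27, with adjusted p-values of 0.504 for all 3 by edgeR. Over these 4 lists, 393 genes were tested and 20 (5.09%) had an unadjusted p under 0.05 by edgeR, against 8.56% of all genes. DESeq2 gave 8 such genes (2.04%, against 6.52% of all genes), leaving out control 1 gave 11 and leaving out lecko 3 gave 7. The share of all genes was not computed without those libraries, so the lower counts cannot be read as particular to the lists.

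**Figure D4:**
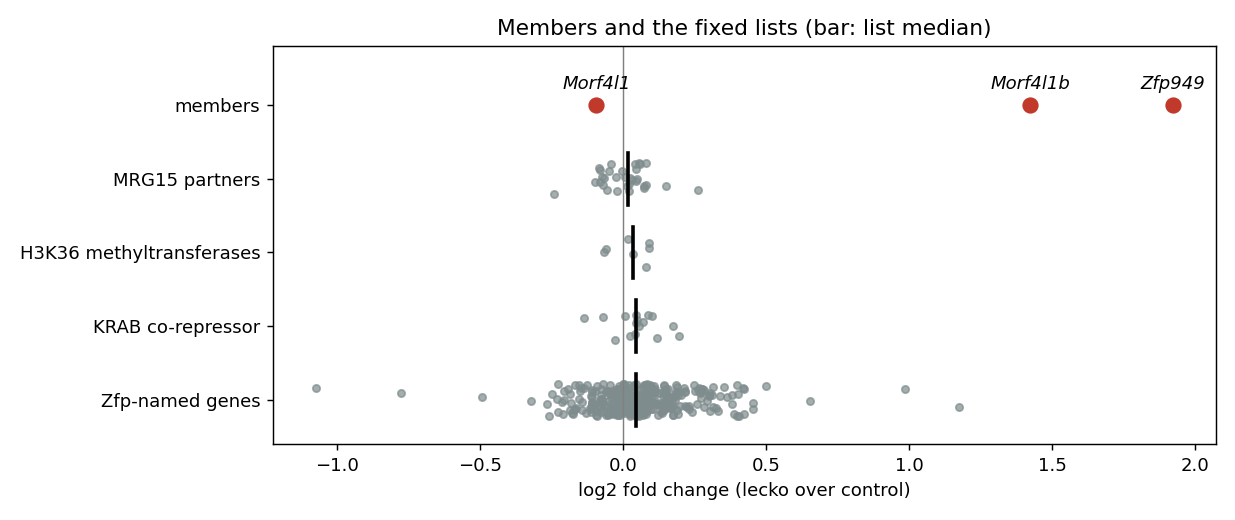
Log2 fold change (lecko over control) of the 3 members and of each tested gene in 4 lists, 1 point per gene, with a black bar at each list's median. The medians lie between 0.02 and 0.05, and the genes of all 4 lists range from -1.07 to 1.18. Zfp949 (1.92) and Morf4l1b (1.42) lie outside that range, having been chosen for their difference.

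The genes most like each member were ranked by the mean absolute difference, over the 6 libraries, of log2 CPM centred on each gene's mean. Since the members were chosen for their difference between the groups, this ranking returns genes with a like difference and is a description. For Zfp949 the closest gene was Morf4l1b, at 0.25, followed by Marco (0.28), Cd28 (0.32), Lce3d (0.32) and Matn3 (0.36). For Morf4l1b the closest were Cd28 (0.11), Gm1966 (0.13), Marco (0.15), Kmo (0.19) and Htra4 (0.19). Of these, Marco, Cd28 and Lce3d averaged at most 2.00 CPM in either group. For Morf4l1, which differed little between libraries, the closest were Hspa12b (0.01), Smarcal1 (0.01), Tln2 (0.02), Fuca1 (0.02) and Adam15 (0.02), whose log2 fold changes lay between -0.12 and -0.07.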

How the data were processed

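The authors deposited 1 table of estimated counts for 6 libraries, with 9.6 to 10.5% of the values per library not whole. The submitters' processing notes list RSEM 1.3.1, HISAT2 2.2.1, Bowtie2 2.4.5 and the build GRCm38.p6, and no source used here gives their roles, the annotation or the strand setting. Of 18482 gene identifiers, 18428 matched the RefSeq table of that build. Counts were rounded, filtered (filterByExpr, minimum count 10, minimum total 15), scaled by TMM and tested between groups with the robust quasi-likelihood method of edgeR 4.0.16 (R 4.3.3), and p-values were adjusted over 14856 genes (Benjamini-Hochberg). Log2 CPM used a prior count of 2. The labels do not name the animals, so p-values measure the spread between these libraries, whose chi-square per degree of freedom within groups was 8.43 to 17.45. Genes named are the members, Kdr, the family, nearest neighbours, up to 6 neighbours and up to 4 list genes with the smallest p, and the 5 genes most like each member; protein relatives of Zfp949 were not compared. The members and lists were chosen with earlier results of these data known. Alternatives used DESeq2 1.42.0, limma 3.58.1 (voom), other scalings, filters and terms, and fewer libraries. The scripts were tested on simulated data.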

Additional observations from a re-analysis of the deposited data

How the results depend on the processing

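The log2 fold changes of Zfp949, Morf4l1b, Morf4l1 and the summed family moved by less than 1 SD between libraries under every alternative computed. Leaving out 1 library at a time gave 1.85 to 1.97 for Zfp949, 1.38 to 1.49 for Morf4l1b, -0.15 to -0.06 for Morf4l1, 0.02 to 0.11 for the pair's sum, -0.01 to 0.07 for the family's sum and 9.60 to 10.15 percentage points for the share of Morf4l1b. With sex as a covariate they were 1.87 for Zfp949, 1.50 for Morf4l1b and -0.09 for Morf4l1, and with control 1 as the single control 1.87, 1.50 and -0.10. With Morf4l2 added to the sum the share differed by 6.13 percentage points, since the denominator is larger. DESeq2 called 24 genes higher and 8 lower. It counted 3 neighbours (4.92%) and 8 list genes (2.04%) with an unadjusted p under 0.05, against 6.52% of all genes. By edgeR a 5 Mb window counted 10 of 147 tested neighbours (6.8%), against 6 of 61 (9.84%) within 2 Mb and 5 of 44 (11.4%) within 1 Mb. The share over all genes by edgeR was 8.56%. By locus, the 1 Mb window counted 2 of 8 around Zfp949 (25.0%), 2 of 7 around Morf4l1 (28.6%) and 2 of 31 around Morf4l1b (6.45%), beside the same 8.56%. Bcl2a1b was counted for both Zfp949 and Morf4l1. Leaving out 1 library gave 2 to 36 genes higher (36 without control 2, 4 without lecko 2) and 1 to 5 lower (5 without control 1, 2 without lecko 2). It gave 4 to 6 neighbours and 7 to 21 list genes, and the cause was not tested. The share of all genes at an unadjusted p under 0.05 was not computed for these refits or for the replicate block that follows. A replicate block left 2 genes higher and 1 lower, with 1.92 for Zfp949, 1.42 for Morf4l1b, 6 neighbours and 16 list genes; same-numbered libraries deviated together with correlations of 0.34, -0.07 and 0.04, so the numbers were not taken to pair animals. Summed counts were not refitted with DESeq2, voom or without robust estimation.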
